A study of Mus musculus with 12 samples.

Results

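The transcripts uc007zcd.1, uc009bdi.2, uc009bdj.2 and uc007muw.1 of the newborn mouse eye were followed through mRNA and ribosome footprints. They are 4 of 63759 UCSC transcript identifiers in the files, of which 42689 had a count in some library. They were chosen by their measured values, a higher level in the knockout in both assays, so that higher level is given as a description, and test calls on it, where printed, lend it no support. Eyes at postnatal day 0.5 came from mice labelled WT or RNG140KO (KO below), the latter a knockout of RNG140, and each of the 4 groups (WT or KO, mRNA or footprints) held 3 libraries. Libraries of a group are numbered 1 to 3 in their titles. No strain, allele, litter, sex or pooling of animals is stated, nor that each library is a separate animal, so any p-value reflects only how these libraries vary, which could be technical in part.

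RNG140, the product of the gene Caprin2, is an RNA-binding protein found in RNA granules and named in work on neurons and on the differentiating lens. Ribosome profiling sequences the mRNA fragments that ribosomes shield from nuclease, so footprint counts follow how many ribosomes sit on a transcript, while RNA-seq counts follow the mRNA itself. The study compared the assays to ask how loss of RNG140 changes translation efficiency, the number of footprints relative to mRNA. A transcript whose mRNA and footprints rise by the same factor has an unchanged translation efficiency. The files and the reference tables do not link the identifiers to genes, so no gene name, function, position or sequence is given for the 4 transcripts. For the same reason the level of Caprin2 and markers of eye tissue were not analysed here, and the genotype rests on the labels alone.

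All 4 transcripts were scarce in WT and several times higher in KO, in mRNA and in footprints alike. The ratio of the group means ran from 10.03-fold for uc007zcd.1 to 13.1-fold for uc009bdi.2 in mRNA, and from 6.63-fold for uc007muw.1 to 10.4-fold for uc007zcd.1 in footprints. In each transcript and each assay the 3 KO libraries lay above the 3 WT libraries. Footprints thus went up with the mRNA, and for none of the 4 could the sizes of the rises in mRNA and in footprints be told apart beyond the spread between libraries. In whole eyes, more cells of a type and more RNA per cell cannot be told apart.

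Levels are given as CPM, counts per 1000000 counts of the library. The mRNA libraries held between 666464 and 1244104 counts and the footprint libraries between 327847 and 5966639, the lowest of them being WT footprint library 1, in which 1 count equals 3.05 CPM. The 4 transcripts had between 1 and 40 counts in a WT library and between 23 and 437 in a KO library, so the WT levels carry the larger counting error. The exact 95% binomial intervals in the plot of levels cover counting error only.

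**Figure D1:**
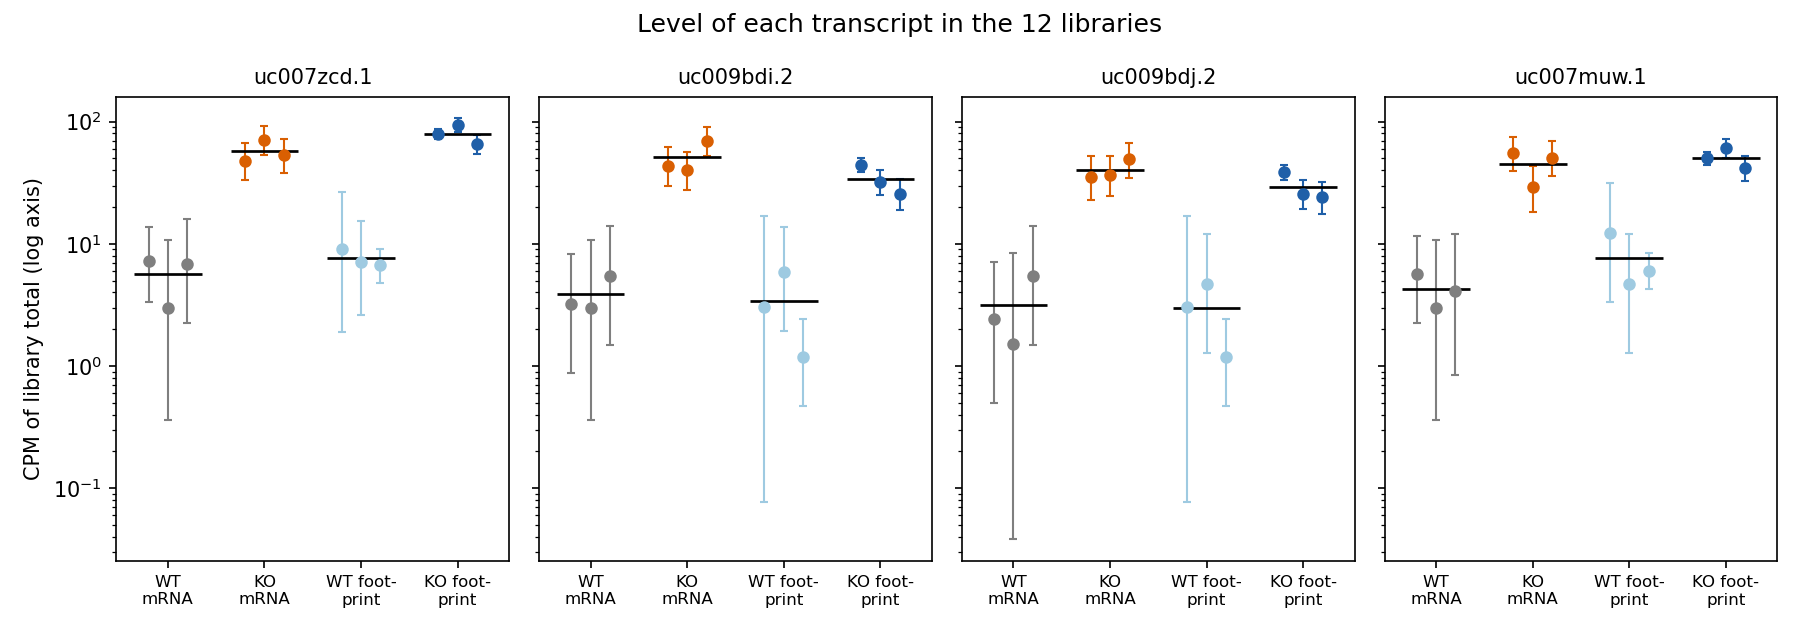
Level of each transcript in CPM of the library total (log axis) in the 12 libraries, 3 per group in the order of their numbers. Points are libraries with exact 95% binomial intervals and horizontal lines are group means; in every panel the KO points lie above the WT points in both assays.

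The transcript uc007zcd.1 has a listed length of 146, in the files' own unstated unit. Its mRNA level was 7.23, 3.0 and 6.86 CPM in WT libraries 1, 2 and 3 and 47.9, 70.5 and 53.1 CPM in KO. The mean went from 5.70 ± 2.34 CPM in WT to 57.2 ± 11.8 CPM in KO (SD, n = 3). KO library 2 was the highest, and the lowest KO library had 6.63 times the level of the highest WT library. Its footprint level was 9.15, 7.08 and 6.70 CPM in WT and 79.5, 94.4 and 65.1 CPM in KO. The footprint mean went from 7.65 ± 1.32 to 79.7 ± 14.7 CPM (SD, n = 3). The 3 WT footprint libraries were close to each other although they differed widely in depth, with 3, 6 and 40 counts for this transcript. In footprints, too, KO library 2 was the highest and the groups were far apart.

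The transcripts uc009bdi.2 and uc009bdj.2 are neighbours in the files, with listed lengths of 337 and 274. The mRNA level of uc009bdi.2 was 3.22, 3.0 and 5.49 CPM in WT and 43.7, 40.3 and 69.9 CPM in KO, with means of 3.90 ± 1.38 and 51.3 ± 16.2 CPM (SD, n = 3). Its footprint level was 3.05, 5.90 and 1.17 CPM in WT and 44.2, 32.2 and 25.6 CPM in KO, with means of 3.38 ± 2.38 and 34.0 ± 9.43 CPM (SD, n = 3). KO library 3 was thus the highest of the KO libraries in mRNA and the lowest in footprints. The WT footprint values rested on 1, 5 and 7 counts, so the factor between single libraries ranged widely, from 4.34 to 37.7 over the 9 pairs of a KO with a WT footprint library.

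The shorter neighbour uc009bdj.2 showed a like pattern, again with KO library 3 the highest of the KO libraries in mRNA and the lowest in footprints. Its mRNA level was 2.41, 1.5 and 5.49 CPM in WT and 35.2, 36.5 and 49.2 CPM in KO, with means of 3.13 ± 2.09 and 40.3 ± 7.71 CPM (SD, n = 3). Its footprint level was 3.05, 4.72 and 1.17 CPM in WT and 38.6, 25.6 and 24.0 CPM in KO, with means of 2.98 ± 1.78 and 29.4 ± 7.99 CPM (SD, n = 3). In none of the 12 libraries did uc009bdj.2 have more counts than uc009bdi.2. Over the KO libraries it had 92 counts against 117 in mRNA, or 78.6%, and 315 against 364 in footprints, or 86.5%. Whether both were counted over the same reads was not tested, and the sources used here do not give the authors' treatment of reads shared between transcripts. The pair is therefore not taken as 2 separate observations.

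The transcript uc007muw.1 has a listed length of 461. Its 12 counts were the same as those of the next 2 transcripts in the files, uc007mux.1 and uc007muy.1, so these 3 identifiers stand for 1 set of reads here. The mRNA level was 5.63, 3.0 and 4.12 CPM in WT and 55.0, 28.9 and 50.5 CPM in KO, with means of 4.25 ± 1.32 and 44.8 ± 13.9 CPM (SD, n = 3). The footprint level was 12.2, 4.72 and 6.03 CPM in WT and 50.2, 60.5 and 41.6 CPM in KO, with means of 7.65 ± 3.99 and 50.8 ± 9.44 CPM (SD, n = 3). KO library 2 was the lowest KO library in mRNA and the highest in footprints. The groups lay closest in footprints, where the lowest KO library was 3.41 times the highest WT library, WT library 1, which had 4 counts.

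The size of the rise was then compared between the assays, library by library, as log2 CPM of each KO library (prior count 2) minus the mean log2 CPM of the 3 WT libraries. For uc007zcd.1 the rises in KO libraries 1, 2 and 3 were 2.92, 3.46 and 3.06 in mRNA and 3.21, 3.46 and 2.93 in footprints. The ranges coincided, and the mean footprint rise exceeded the mean mRNA rise by 0.052. For uc009bdi.2 the rises were 3.20, 3.08 and 3.86 in mRNA and 3.48, 3.04 and 2.72 in footprints, so the mean footprint rise differed by -0.30 and the ranges overlapped. For uc009bdj.2 they were 3.21, 3.26 and 3.68 in mRNA and 3.38, 2.81 and 2.72 in footprints, a difference of -0.41. In this transcript 2 of the 3 footprint rises lay below all mRNA rises, and the third lay among them.

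For uc007muw.1 the rises were 3.42, 2.52 and 3.30 in mRNA and 2.64, 2.91 and 2.38 in footprints, a difference of -0.43. Its footprint rises were the smallest of the 4 transcripts in KO libraries 1 and 3, and the third in order in KO library 2. Its mRNA rise was the largest of the 4 in KO library 1, the third in order in KO library 3 and the smallest in KO library 2. The SD of the 3 rises ran from 0.26 to 0.49 in mRNA and from 0.26 to 0.38 in footprints over the 4 transcripts. All 3 rises subtract the same WT mean, so these SD and the ranges hold the spread of the KO libraries only. The WT libraries varied too: the log2 CPM of uc009bdi.2 in WT footprint libraries 1, 2 and 3 was 2.06, 2.81 and 1.19. The prior count pulls low levels together and so makes these rises smaller than the ratios of CPM. With a prior count of 0.5, for example, the mRNA rises of uc009bdj.2 were 3.56, 3.61 and 4.03. With that prior count the mean footprint rise of uc007zcd.1 was the smaller one, by -0.0075. The scaling between libraries mattered for KO footprint library 1, whose rise in uc007zcd.1 was 3.72 with TMM scaling of distinct features in place of 3.21. With that scaling the mean footprint rise differed from the mean mRNA rise by 0.25 for uc007zcd.1, -0.016 for uc009bdi.2, -0.067 for uc009bdj.2 and -0.20 for uc007muw.1, so the differences of uc009bdi.2 and uc009bdj.2 came close to 0.

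**Figure D2:**
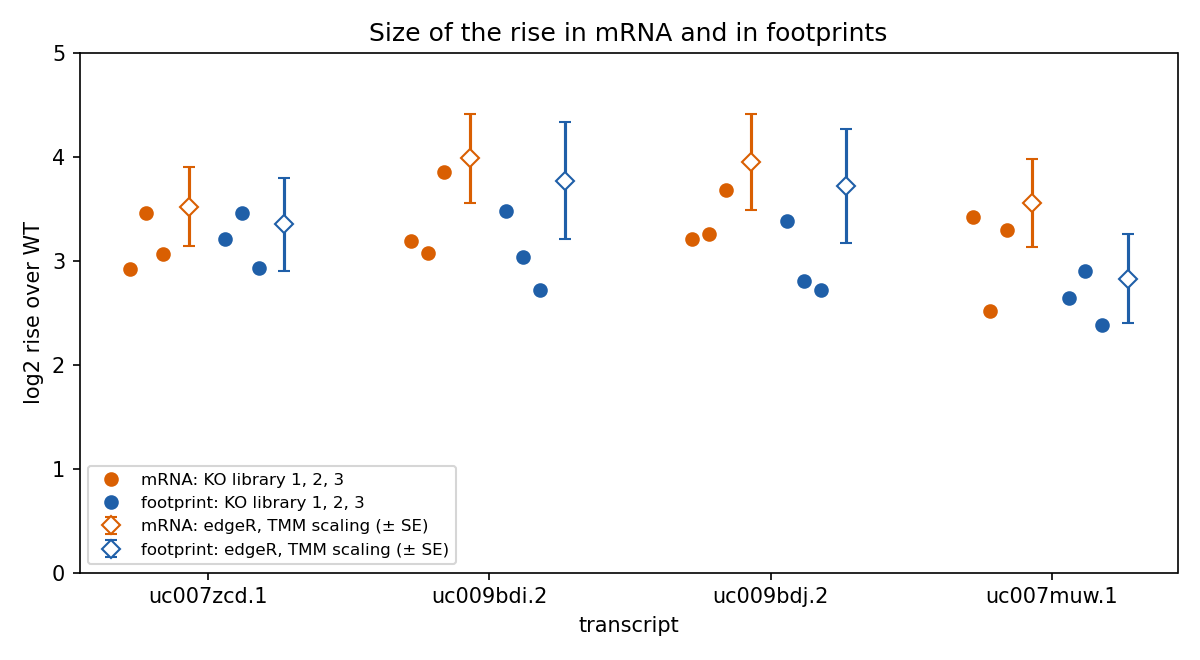
Size of the log2 rise over WT (vertical axis) for each transcript in mRNA (orange) and footprints (blue). Filled points are KO libraries 1 to 3 minus the mean of the 3 WT libraries. Open diamonds are edgeR fold changes with TMM scaling and their SE. The ranges of the filled points, which leave out the spread of the WT libraries, overlap between the 2 assays in each transcript.

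The same comparison was made with edgeR, whose fold changes use TMM scaling and weigh libraries by depth. Beside the CPM values, TMM scaling places mRNA fold changes 0.27 higher on the log2 scale at the median of all features, and this shift is to be kept in mind when levels and fold changes are set together. The mRNA log2 fold changes of KO over WT were 3.52 (SE 0.38) for uc007zcd.1, 3.99 (SE 0.43) for uc009bdi.2, 3.95 (SE 0.46) for uc009bdj.2 and 3.56 (SE 0.42) for uc007muw.1. The footprint log2 fold changes were 3.35 (SE 0.45), 3.77 (SE 0.56), 3.72 (SE 0.55) and 2.83 (SE 0.43) in the same order. In every one of the 4 the footprint value was the smaller with TMM scaling, but with library totals only in uc007muw.1 (2.92 against 3.29). In uc007zcd.1, uc009bdi.2 and uc009bdj.2 the gap was less than 1 SE of either value.

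The difference between both changes, footprint minus mRNA, was estimated in 1 model of all 12 libraries, with 95% intervals from its residual spread. It was -0.098 (-1.15 to 0.96) for uc007zcd.1, -0.084 (-1.54 to 1.37) for uc009bdi.2 and -0.11 (-1.56 to 1.34) for uc009bdj.2. These 3 estimates lay near the median over all features, -0.070, but with library totals in place of TMM scaling they were 0.18, 0.094 and 0.098, where the median of all features was 0.11. For uc007muw.1 the difference was -0.65 (-1.89 to 0.58), and it stayed below 0 in all 19 alternatives, between -0.91 and -0.18. The intervals of this model are wide, and each holds differences of more than 2-fold in at least 1 direction, so equal rises in both assays are not shown. With each numbered sample as a block, the difference was -0.0080 (SE 0.21) for uc007zcd.1 and -0.059 (SE 0.70) for uc009bdi.2. It was -0.025 (SE 0.57) for uc009bdj.2 and -0.62 (SE 0.64) for uc007muw.1. The SE of uc007zcd.1 was thus smaller than without the block (0.51). No label states that equal numbers pair samples, so equal rises are not read from this block either.

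Against all features, those tested being distinct sets of counts that passed a low-count filter, the 4 transcripts stood at the high end of both assays, as their choice required. In mRNA 1294 of 14131 features, or 9.16%, passed the edgeR quasi-likelihood test with a higher level in KO (adjusted p under 0.05, "called higher" below), and in footprints 118 of 17236, or 0.685%. With library totals in place of TMM scaling the mRNA calls split into 892 higher and 2063 lower, against 1294 and 851. All 4 transcripts were called in both assays, as were 35 of the 12694 features tested in both, or 0.276%; since this contrast chose the 4, nothing is read from their calls. In CPM, every KO library lay above every WT library in 10% of the features tested in mRNA and in 13.2% of those tested in footprints. The footprint fold changes of uc009bdi.2 and uc009bdj.2 ranked 1 and 2 of 17236, that of uc007zcd.1 ranked 6 and that of uc007muw.1 ranked 20. In mRNA the 4 ranked 6, 7, 11 and 10 of 14131 in that order.

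The calls of the 4 in footprints depended on the setting. In the 12 footprint alternatives, log2 fold changes ran from 3.21 to 3.67 for uc007zcd.1, from 3.10 to 4.35 for uc009bdi.2, from 3.15 to 4.14 for uc009bdj.2 and from 2.61 to 3.16 for uc007muw.1. Each of the 4 was still called in 7 of them. The call was lost by all 4 without WT library 2, KO library 1 or KO library 2, with library totals, and with the replicate number as a block. In the 13 mRNA alternatives the log2 fold changes of the 4 ran from 2.95 to 4.49. The lowest came without WT mRNA libraries 1 and 2, which leaves 1 WT library, assumed to vary like the KO libraries. The difference between the changes was called in 0 of 25927 features, or 0% (edgeR; 2567 at an unadjusted p under 0.05, and 58 called by DESeq2), and none of the 4 was called in any alternative that gave it an adjusted p.

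**Figure D3:**
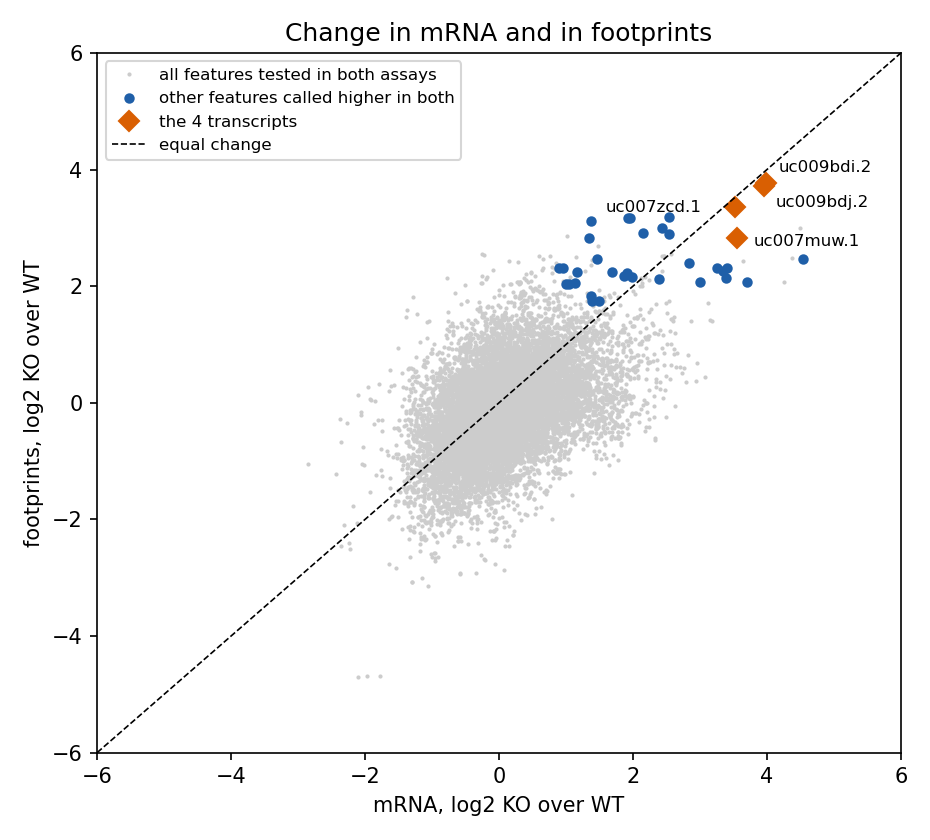
Log2 fold change of KO over WT in mRNA (horizontal) and footprints (vertical) for 12694 features tested in both assays (grey). The 31 other features called higher in both are blue and the 4 transcripts orange diamonds; with TMM scaling the 4 lie below the dashed line of equal change, which 3 of them cross with library totals.

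The other 31 features called higher in both assays spread widely around equal change. Some have adjacent identifiers, such as uc008crn.4 and uc008cro.4, and may not be separate observations. The median log2 fold change of the 31 was 1.93 in mRNA (0.89 to 4.54) and 2.26 in footprints (1.74 to 3.19), against medians of 3.75 and 3.54 for the 4 transcripts. Footprint minus mRNA ran from -1.95 to 1.82 in the 31, with a median of 0.58 and 9 values below 0. The smallest change among them was larger in footprints (1.74) than in mRNA (0.89), so the double call itself can favour values above 0. In the 4 transcripts footprint minus mRNA ran from -0.65 to -0.084, and above 0 in 3 of them with library totals. The set of 4 thus combined large changes in both assays, a description of how it was chosen. Listed lengths ran from 78 to 1234 in the 31, with a median of 506, and from 146 to 461 in the 4, with a median of 305.5.

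The choice did not use the footprint to mRNA ratio within a genotype, though it rests on the same counts. It is given as the ratio of mean CPM, on the scale of library totals, where the median of features with listed lengths from 146 to 461 was 0.730 in WT and 0.652 in KO (11293 features). The ratio was 1.34 in WT and 1.39 in KO for uc007zcd.1, at percentiles 80.6 and 81.9 of those features. It was 1.8 and 1.13 for uc007muw.1, at percentiles 89.7 and 75.0. With all libraries the neighbours had lower ratios: uc009bdi.2 had 0.865 in WT and 0.663 in KO, at percentiles 59.4 and 50.8, and uc009bdj.2 had 0.952 and 0.729, at percentiles 64.2 and 55.2. Over all libraries, the ratios of uc007zcd.1 and uc007muw.1 lay above the median of features of like length in both genotypes. The transcripts were chosen by the same WT and KO counts, and that choice can shift the ratios. These percentiles are therefore a description, and no difference from other features is read from them. The WT ratios rest on 8 to 16 counts in mRNA and 12 to 49 in footprints, and those of the neighbours on single libraries. Without WT footprint library 2 the WT ratio of uc009bdi.2 was 0.541, and without WT mRNA library 3 that of uc009bdj.2 was 1.52. Without both WT libraries of number 2 the WT ratios of uc009bdi.2 and uc009bdj.2 were 0.485 and 0.535, and without both of number 3 they were 1.44 and 1.99. Without the libraries of number 3 the WT ratio of uc009bdj.2 was thus above those of uc007zcd.1 (1.59) and uc007muw.1 (1.96), and that of uc009bdi.2 below both. With 1 library left out, the ratio of uc007zcd.1 stayed between 1.08 and 1.55 in WT and between 1.26 and 1.58 in KO. That of uc007muw.1 stayed between 1.27 and 2.15 in WT and between 0.963 and 1.28 in KO.

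The transcripts listed next to the 4 in the files were examined, 5 with a count on each side. The files hold no coordinates, so nearness in the list is not shown to be nearness in the genome. Around uc007zcd.1, 3 of the 10 other transcripts could be tested in mRNA and 4 in footprints. In mRNA 2 of these 3 were called higher, against 9.16% of all features tested. They were uc007zce.2 and uc012afe.1, which follow uc007zcd.1, and DESeq2 called both as well. In footprints 0 were called (edgeR; 0 at an unadjusted p under 0.05 and 0 with DESeq2). These 2 are named because so few passed, after their values were seen, and they shared all 3 WT mRNA counts, so they may not be separate observations. Listed between them is uc012afd.1, also named after its values were seen, which did not pass the low-count filter in mRNA. Its mRNA was at 2.41, 0 and 4.12 CPM in WT and 8.46, 8.81 and 15.5 CPM in KO. Its footprint log2 fold change was -0.094 (SE 0.44). Whether it shares reads with the other 2 was not tested.

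The mRNA of uc007zce.2, of listed length 135, was at 4.02, 1.5 and 8.23 CPM in WT and 19.7, 22.6 and 28.5 CPM in KO. KO over WT was 2.62 on the log2 scale (SE 0.49, edgeR adjusted p = 0.00153), with every KO library above every WT library. Its footprints were at 15.3, 5.90 and 8.55 CPM in WT and 9.64, 10.1 and 6.93 CPM in KO, so here the groups overlapped. In footprints it was -0.061 (SE 0.41, edgeR adjusted p = 0.951). For uc012afe.1, of listed length 125, the values were 2.45 in mRNA (SE 0.51, edgeR adjusted p = 0.00313) and 0.079 in footprints (SE 0.42, edgeR adjusted p = 0.937). Footprint minus mRNA was -2.59 (SE 0.67, edgeR adjusted p = 0.228) for uc007zce.2 and -2.29 (SE 0.68, edgeR adjusted p = 0.277) for uc012afe.1, so the difference between assays did not pass the threshold. It did for uc007zce.2 with each numbered sample as a block (-2.43, edgeR adjusted p = 0.0325), the smallest of its alternatives, in which adjusted p went up to 0.867. Whether it differs from that of uc007zcd.1 was not tested.

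The mRNA calls of both neighbours held in 12 of 13 alternatives. Without WT mRNA libraries 1 and 2, where 1 WT library is left and is assumed to vary like the 3 KO libraries, the log2 fold changes were 1.61 and 1.44, with edgeR adjusted p of 0.173 and 0.259, the highest among their alternatives, where the lowest were 3.88e-05 and 0.000135. Their mRNA rested on 1 to 6 counts in a WT library and 13 to 22 in a KO library.

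Around uc009bdi.2 and uc009bdj.2, 6 other transcripts could be tested in each assay and 0 were called in either (edgeR; at an unadjusted p under 0.05 it was 0 in mRNA and 3 in footprints). Among these 3, uc012ejc.1 and uc009bdk.2 had the same counts in WT footprint library 3 and KO footprint libraries 1 and 3. They may not be separate observations. DESeq2 called 0 in mRNA and 1 in footprints. The 3 transcripts before the pair had mRNA log2 fold changes from -0.19 to 0.18 and footprint values from 0.55 to 0.75. The transcript just before uc009bdi.2, uc009bdh.2, had 48.3 ± 17.7 CPM of mRNA in WT and 35.2 ± 12.3 in KO, and 105.1 ± 20.7 CPM of footprints in WT and 184.0 ± 30.6 in KO (SD, n = 3). Its footprint log2 value was 0.73 (SE 0.50, edgeR adjusted p = 0.413). Its KO footprint libraries, at 165.9, 219.3 and 166.9 CPM, all lay above its WT libraries, at 82.4, 109.8 and 123.0 CPM. The same held for uc009bdg.2 and uc033iok.1, and for 13.2% of all features tested in footprints. After the pair, uc012ejc.1 had 59.8 ± 30.6 CPM of footprints in WT and 21.0 ± 5.25 in KO, a log2 value of -1.32 (SE 0.39, edgeR adjusted p = 0.0813). It was the feature called by DESeq2 (adjusted p = 0.0495). Its footprints were at 82.4, 72.0 and 25.0 CPM in WT libraries 1, 2 and 3 and at 15.3, 22.1 and 25.6 CPM in KO. The groups thus overlapped, with WT library 3, the deepest, inside the KO range. The transcripts uc009bdh.2, uc009bdg.2, uc033iok.1 and uc012ejc.1 were picked after their values were seen. None of the 6 tested neighbours thus had a log2 fold change near those of the pair.

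Around uc007muw.1 and its 2 copies, 8 other transcripts could be tested in mRNA and 7 in footprints. Since uc007mur.1 and uc007mus.1 had the same 12 counts, these are 7 and 6 distinct sets of counts. Distinct sets may still not be separate observations, as uc007muz.1 and uc007mva.1 shared all their WT counts in both assays. Of the distinct sets, 0 were called in either by edgeR or DESeq2. At an unadjusted p under 0.05 edgeR gave 1 in mRNA and 0 in footprints. Their log2 fold changes ran from -0.76 to 0.30 in mRNA and from -0.50 to 0.065 in footprints. Of the 7 distinct sets, 2 had a value above 0 in mRNA. In CPM, every KO mRNA library of uc007mut.1, uc007muv.1, uc007muz.1, uc007mva.1 and uc007mvb.1 lay below every WT library. The mean of uc007mut.1, for example, was 246.6 ± 51.3 CPM in WT and 119.5 ± 23.4 CPM in KO (SD, n = 3). In uc007muq.1 and uc007mur.1 the groups overlapped. These transcripts are named after their values were seen, and the share of all features separated in this direction was not computed.

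**Figure D4:**
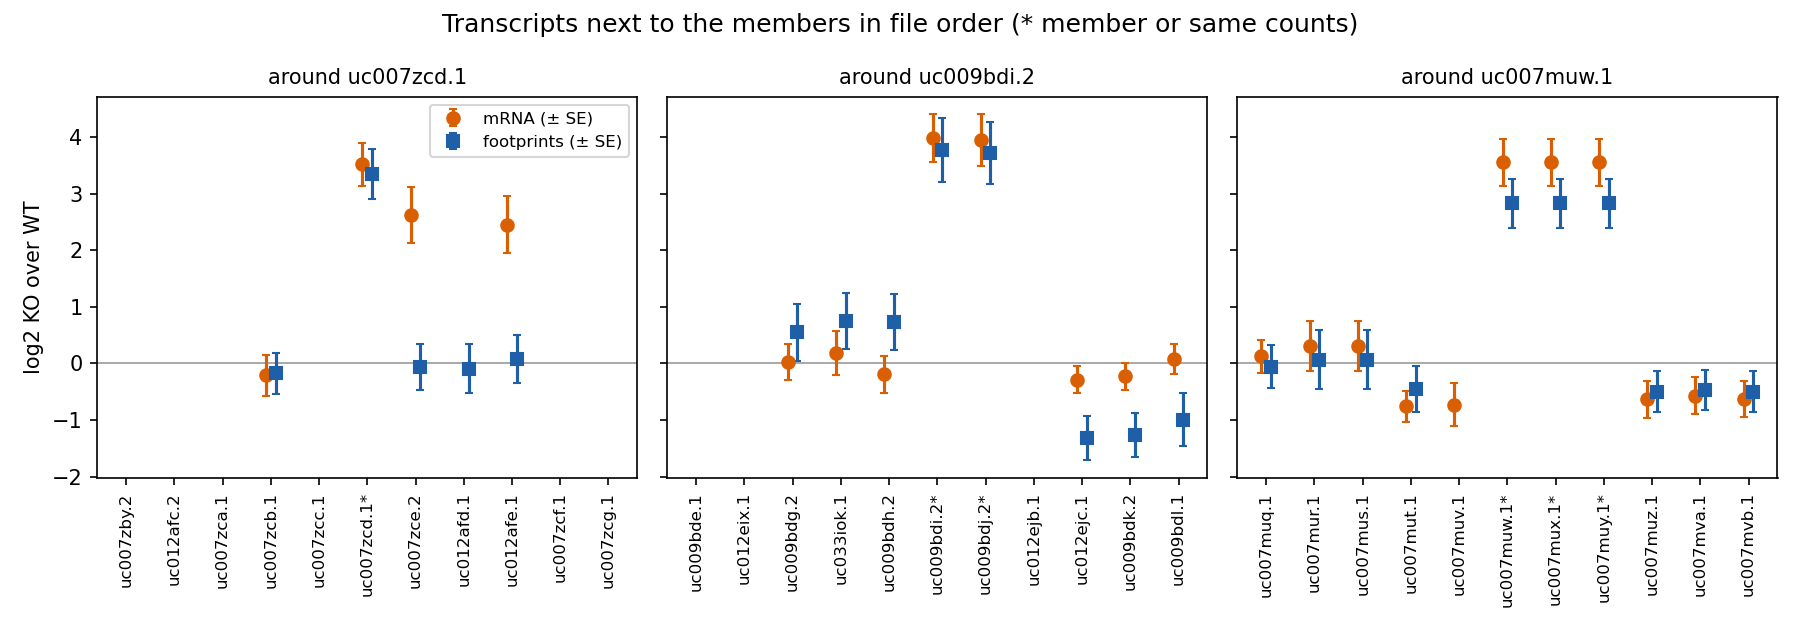
Log2 fold change of KO over WT (± SE) in mRNA (orange circles) and footprints (blue squares) for transcripts in file order, those with a count only, around uc007zcd.1 (left), uc009bdi.2 (middle) and uc007muw.1 (right). Asterisks mark the 4 transcripts and copies with the same counts. Positions without a point did not pass the low-count filter, and 2 transcripts after uc007zcd.1 were called higher in mRNA and were not called in footprints.

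Among 13217 other features with a mean of at least 10 counts in each assay, the 1 most like each transcript was found by the Pearson correlation of log2 CPM over the 12 libraries. A feature already taken for an earlier transcript was skipped. The features named for uc009bdi.2, uc009bdj.2 and uc007muw.1 are therefore the most like among those left. The 4 transcripts separate WT from KO libraries, so this measure can be high for any feature that differs between those groups, whatever the size of its difference. For uc007zcd.1 it was uc007hhw.1 (r = 0.94), whose mean mRNA level was 5.67 CPM in WT and 32.3 in KO and whose footprint level was 9.84 and 51.7 CPM. For uc009bdi.2 it was uc007mjn.1 (r = 0.95), with 9.11 and 30.2 CPM in mRNA and 5.46 and 21.9 CPM in footprints. Both of these are among the 31 other features called higher in both assays. For uc009bdj.2 it was uc007gbl.2 (r = 0.95), with 88.8 and 181.6 CPM in mRNA and 74.2 and 164.6 CPM in footprints, and for uc007muw.1 it was uc007qom.1 (r = 0.94), with 23.0 and 37.1 CPM in mRNA and 26.5 and 37.3 CPM in footprints. These last 2 changed by much smaller factors than the transcripts they resemble.

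Within groups, after each group's mean was taken out, the correlation of these features with the 4 transcripts was -0.37, 0.61, 0.63 and 0.68 in the order given. The features were chosen by the highest correlation, among those not yet taken, over the same libraries, which includes this part. The choice itself can therefore raise these values, and nothing is read from them. Among the 4 themselves, uc009bdi.2 and uc009bdj.2 kept a correlation of 0.92 within groups. The other pairs fell between 0.062 and 0.42, over the same 12 libraries.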

How the data were processed

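Ribosome footprints and mRNA of mouse eyes were counted in 12 libraries, 3 per group, grouped by the labels' titles. The submitters' processing notes name the mm10 genome and the tools TopHat2 2.0.9, Bowtie2 2.3.4.2 and CASAVA 1.8. How reads were assigned to transcripts, and by which annotation, is not given in the sources used here. Per the labels and values, the authors deposited raw counts per transcript, with another number per transcript of unstated unit, called the listed length here.

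Levels are CPM of the library total. Transcripts with the same 12 counts were merged into 1 feature, leaving 32803. mRNA and footprints were fitted separately with edgeR 4.0.16 (limma 3.58.1, R 4.3.3; quasi-likelihood F test, TMM, default low-count filter, Benjamini-Hochberg over all features), and their difference as the assay-by-genotype interaction, for features whose counts summed to 10 or more in each assay. SE come from the F statistic. Log2 CPM used a prior count of 2. DESeq2 1.42.0 was an alternative, beside other scalings, no filter, every transcript separate, a replicate block and libraries left out; the ratios without single libraries were added after seeing the data.

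Named were the 4 transcripts, the feature most correlated with each among those not yet taken, and listed neighbours that passed both tests. Exceptions are marked, or are named for shared counts or adjacent identifiers. The members, lists and rules were chosen with earlier results of these data known.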

Additional observations from a re-analysis of the deposited data

How the results depend on the processing

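The low WT counts of the 4 transcripts limit the precision of these results, at 1 to 9 counts in a WT mRNA library and 1 to 40 in a WT footprint library. Except where stated, the cause was not tested. Of mRNA, 2145 features were called; there were 1281 with DESeq2, 328 without WT mRNA libraries 1 and 2 (1 WT library left), and between 652 and 4379 with 1 replicate left out. Of footprints, 193 were called; there were 0 with library totals, 711 with DESeq2, 968 with no low-count filter, 82 with every transcript separate, and between 0 and 3057 with 1 replicate left out. For footprint minus mRNA 0 were called; there were 2 with DESeq2 size factors, 58 with DESeq2, 5 with no low-count filter, 1 with every transcript separate, and between 0 and 108 with 1 replicate left out.

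No label states that equal numbers pair samples. From the group means, same-numbered libraries had deviations correlating at -0.0068 to 0.046 between WT and KO mRNA, -0.22 to 0.065 between WT and KO footprints and 0.021 to 0.36 between assays, where 5 of 6 mRNA libraries were closest to the footprint library of equal number, which is only a hint. The numbers were not taken to pair samples. Under the replicate block the calls numbered 2120 in mRNA, 0 in footprints and 321 in footprint minus mRNA.

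Footprint minus mRNA changed sign in uc007zcd.1, uc009bdi.2 and uc009bdj.2, to 0.18, 0.094 and 0.098 with library totals and to 0.27, 0.56 and 0.85 without WT mRNA libraries 1 and 2. With replicates left out it ran from -0.29 to 0.36, -0.68 to 0.44 and -0.68 to 0.26. The footprint value of uc007zce.2 was 0.0019 with library totals and -0.30 to 0.39 with replicates left out, and that of uc012afe.1 -0.17 to 0.63.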
